A study of Mus musculus with 12 samples.

Results

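The change of medium was examined in cells that had all received BIGH3. The comparison takes 6 of the 12 libraries of the study: 3 of differentiated cells treated with BIGH3 against 3 of undifferentiated cells treated with BIGH3, chosen by their labels and not by any measured value. All cells were labelled MLO-Y4, a mouse cell line with features of osteocytes, on plates with a coat of collagen I (0.15 mg/mL). BIGH3 was given as recombinant human protein. Differentiated cells had α-MEM with 10% fetal bovine serum, ascorbic acid at 50 µg/mL and β-glycerophosphate at 4 mM. The labels do not give the medium of the undifferentiated cells, the dose of BIGH3 or the duration of either treatment, so differentiation and a direct effect of the medium cannot be told apart. Control libraries without BIGH3, 3 undifferentiated and 3 differentiated, entered the same fit, where they share the estimate of the spread, and gave the test of where the effect of the medium differed. A fit of the 6 BIGH3 treated libraries alone called 8183 of 13846 genes. Separate cultures are not stated for the replicates, and the p-values then measure the spread between these libraries, which may be technical. In bulk RNA, fewer cells of a type and less RNA per cell cannot be told apart.

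Osteocytes are cells embedded in mineralised bone that sense load, talk to each other through gap junctions and secrete factors that control mineral and the cells on the bone surface. Ascorbic acid is a cofactor of the enzymes that hydroxylate collagen, and β-glycerophosphate is a phosphate source once alkaline phosphatase splits it, so medium with both is widely used to drive matrix formation and mineral deposition. BIGH3, the protein of the gene Tgfbi, is a secreted matrix protein induced by TGF-beta that binds collagen and integrins.

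The 6 libraries held 19014492 to 23927498 estimated reads. On the first principal component of log2 CPM (read counts scaled to the size of the library), with 68.7% of the variance, both groups stood apart. On the second, with 11%, undifferentiated library 1 and differentiated library 3 lay apart from the other 4. The summed level of a list of liver markers was higher in these libraries than in others of their group. It was 31.5 CPM in undifferentiated library 1 against 8.73 and 5.56 CPM. In differentiated library 3 it was 89.7 CPM against 29.1 and 29.9 CPM. Both libraries are called liver-rich below for this sum only. The liver genes Alb, Serpina1b and Apoa2 had 3, 4 and 10 reads over the undifferentiated group and 0, 1 and 8 over the differentiated one. Whether liver RNA was present was not tested. Counts of called genes without both libraries stood within 1.5 times of those given here, except for transcript usage, where that value is given beside the result. Of the osteocyte markers, Dmp1, Phex, Pdpn and Fam20c were measured in every library, while Sost and Fgf23 had 0 reads in all 6 libraries, which allows up to 3 reads per group by counting error alone, and Mepe had 3 and 2 reads in the groups. The data names start with MC3, unlike the labelled line, whose identity went untested.

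Over the genome, 8329 of 14711 genes tested (56.6%) passed the test at an adjusted p below 0.05, 4253 higher (28.9%) and 4076 lower (27.7%) in differentiated cells. Of these, 1168 were more than 2-fold higher and 632 more than 2-fold lower. The median log2 fold change of all genes was 0.01 and the median size of a change was 0.33, with a median standard error of 0.09. Scaling by library totals gave 3107 higher and 5304 lower, and a test on TPM (a share corrected for transcript length) gave 2129 higher and 5768 lower, with the median of all genes at -0.10 and -0.16. Small changes therefore depend on the scaling, and groups of genes whose direction turned with it are named as such below. The libraries of the groups did not overlap for 9203 genes (62.6%). The counts of each gene group below stand against that background.

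**Figure D1:**
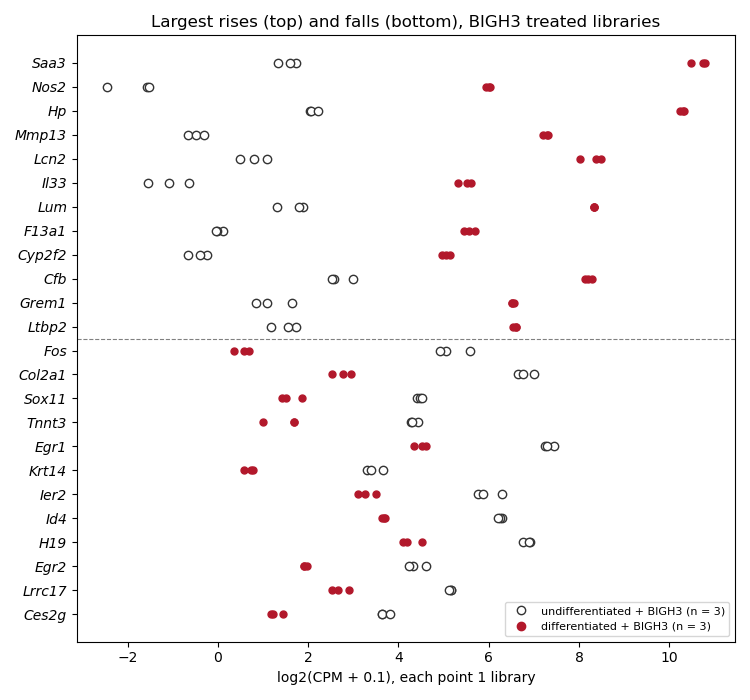
Level of the genes with the largest rises and falls in each of the 6 BIGH3 treated libraries, as log2(CPM + 0.1), with undifferentiated libraries as open circles and differentiated ones as filled circles. The 24 genes were taken from those whose libraries did not overlap between the groups, so their separation is part of the choice. Saa3, for example, stood at 2.4 to 3.2 CPM undifferentiated and 1429 to 1778 CPM differentiated.

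Rises were ranked among called genes with a mean log2 CPM of at least 2 and no overlap between the groups. Of the 5 largest, 3 were in genes of the acute phase, those of Saa3, Hp and Lcn2. In this response cells and liver secrete defence proteins under inflammatory signals. Saa3, which encodes a serum amyloid A protein made outside the liver, stood at 3.2, 2.9 and 2.4 CPM in undifferentiated and 1778, 1728 and 1429 CPM in differentiated libraries. It rose 579-fold, a log2 fold change of 9.18 ± 0.29 (adjusted p = 1.09e-08). Hp, encoding the haemoglobin scavenger haptoglobin, stood at 4.01, 4.07 and 4.56 CPM in undifferentiated and 1259.5, 1279.8 and 1216 CPM in differentiated libraries and rose 296-fold (log2 fold change 8.21 ± 0.14, adjusted p = 1.08e-13). Lcn2, whose product lipocalin 2 binds bacterial iron carriers, stood at 1.3, 1.64 and 2.03 CPM in undifferentiated and 361, 334 and 260.3 CPM in differentiated libraries. In all 3 genes the lowest differentiated library was far above the highest undifferentiated one, though groups without overlap were a condition of the ranking. Differentiated library 3, the library with the highest sum of the liver list, was the lowest of its group for each of them, and any link was not tested. The iron oxidase gene Cp rose from 219.5 ± 13.8 to 2134 ± 12.6 CPM (log2 fold change 3.28 ± 0.05), and Steap4, a metalloreductase gene, had 2 reads over the undifferentiated group and 3076 over the differentiated one, a ratio of rates of 1710 with a 95% counting interval of 472 to 14100.

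Complement genes, whose products tag and lyse microbes, moved with them. C3, the central component, stood at 396, 378 and 395 CPM in undifferentiated and 5028, 5344 and 4963 CPM in differentiated libraries, a 13.1-fold rise (adjusted p = 6.64e-22) with no overlap between the groups. C4b, which has a near-identical copy that may share its reads, rose from 36.4 ± 3 to 625 ± 68.7 CPM. Cfb, the protease of the alternative pathway, rose 45.5-fold. Among genes of the classical pathway, C1s1 had a log2 fold change of 1.0 ± 0.04 and C1ra one of 1.1 ± 0.05. Of 24 acute phase and complement genes tested, 20 rose, none fell and 4 were not called, with a median log2 fold change of 4.01 against 0.01 for all genes. Serpina3f and Serpina3g, protease inhibitor genes of a cluster of close copies, are uncertain for that reason and had log2 fold changes of 4.9 and 3.91.

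Promoters of these genes are shown because the genes rose together. They come from RefSeq (GRCm38.p6), each from 250 bases before to 50 after a start site, and were searched on both strands for TTGCNNAA, a core of sites for C/EBP factors, whose genes Cebpb and Cebpd are described below, and for the kappa B motif, which NF-kB dimers bind. Capitals mark the C/EBP core, in Saa3 (chr7:46715627-46715926, minus strand) and Lcn2 (chr2:32387690-32387989, minus strand).
Saa3: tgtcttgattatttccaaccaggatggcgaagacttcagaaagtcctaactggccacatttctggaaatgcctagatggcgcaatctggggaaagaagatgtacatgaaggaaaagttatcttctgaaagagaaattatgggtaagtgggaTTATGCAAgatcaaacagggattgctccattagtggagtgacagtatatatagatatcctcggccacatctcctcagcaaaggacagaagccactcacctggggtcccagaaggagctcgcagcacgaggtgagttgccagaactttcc
Lcn2: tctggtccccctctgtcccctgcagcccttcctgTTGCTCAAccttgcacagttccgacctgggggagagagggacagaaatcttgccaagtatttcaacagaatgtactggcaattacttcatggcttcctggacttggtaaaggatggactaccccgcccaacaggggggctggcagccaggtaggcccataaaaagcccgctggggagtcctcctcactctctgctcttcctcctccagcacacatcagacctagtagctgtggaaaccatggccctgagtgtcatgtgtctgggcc
The C/EBP core was in 13 of 20 promoters of the acute phase and complement list (65%) and in 10.8% of all 32851 promoters of the table. The kappa B motif was in 3 of these 20 (15%) and in 8.46% of all. A match is a run of letters and not a measured site.

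Genes of the NF-kB pathway and its inflammatory targets rose almost throughout. Of 38 tested, 36 rose, none fell and 2 were not called, with a median log2 fold change of 1.60. The median was the same with Il1a, which had no read in the undifferentiated group, at its bound. On the TPM scale 33 rose and 1 fell. Nos2, the inducible nitric oxide synthase, stood at 0.081, 0.234 and 0.249 CPM in undifferentiated and 65.2, 61.3 and 64.2 CPM in differentiated libraries, a 333-fold rise (log2 fold change 8.38 ± 0.18, adjusted p = 7.17e-19). Il33, an alarmin cytokine of the IL-1 family, rose from 0.385 ± 0.15 to 44.7 ± 4.7 CPM. Among the feedback inhibitors, Tnfaip3, a ubiquitin-editing enzyme, rose 3.9-fold and Tnip1 4.29-fold. Nfkbiz rose 4.58-fold. The cytokine gene Il6 rose from 2.54 ± 0.11 to 13.2 ± 2.5 CPM and Lif from 6.16 ± 0.56 to 25.1 ± 2.4 CPM. Bcl3, a nuclear cofactor of NF-kB, rose 6.4-fold, Tnfaip2 6.44-fold and Il1rn, the receptor antagonist of IL-1, 5.03-fold. The pathway's own subunits changed less: Nfkb1 had a log2 fold change of 0.49 ± 0.05 and Nfkb2 one of 0.55 ± 0.06. Cebpb rose from 102 ± 16.5 to 239 ± 19.5 CPM and Cebpd from 41.1 ± 5.3 to 93.97 ± 10.8 CPM.

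Nfkbia encodes the inhibitor that holds NF-kB in the cytoplasm and is itself a known target of NF-kB. It stood at 79.5, 72.9 and 79.2 CPM in undifferentiated and 129.6, 126 and 117 CPM in differentiated libraries, a log2 fold change of 0.69 ± 0.05 (adjusted p = 4.75e-10). The motif was in 16 of 37 promoters of the list (43.2%) and in 8.46% of all promoters of the table. It was also in 3 of 11 promoters of the 12 largest falls and in 0 of 10 promoters of the 12 largest rises. As an example, the promoter of Nfkbia (RefSeq, GRCm38.p6, chr12:55492598-55492897, minus strand) is shown with the kappa B motif in capitals.
Nfkbia: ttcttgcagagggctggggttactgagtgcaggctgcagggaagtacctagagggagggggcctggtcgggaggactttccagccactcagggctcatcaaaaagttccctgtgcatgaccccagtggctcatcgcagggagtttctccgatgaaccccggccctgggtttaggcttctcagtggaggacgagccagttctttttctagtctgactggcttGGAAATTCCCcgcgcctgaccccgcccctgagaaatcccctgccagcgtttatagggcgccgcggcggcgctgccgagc

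Chemokine genes rose over a wide range. Of 17 tested, 13 rose, none fell and 4 were not called, with a median log2 fold change of 1.96. Cxcl5, which attracts neutrophils, stood at 6.89, 9.13 and 8.29 CPM in undifferentiated and 296, 293 and 244 CPM in differentiated libraries and rose 34.4-fold (adjusted p = 2.46e-09). Cxcl12, the ligand of CXCR4 and a retention signal for blood progenitors in bone marrow, rose from 702 ± 16.1 to 3174 ± 115 CPM. The monocyte attractants Ccl2 and Ccl7 rose from 109 to 579 CPM and from 22.3 to 139 CPM, and Ccl8 from 0.242 to 25.9 CPM. Cxcl1 rose 13.5-fold, Cxcl9 14.2-fold and Cx3cl1, a membrane-bound chemokine, 3.89-fold.

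Interferon-stimulated genes did not follow. Of 43 tested, 13 rose and 23 fell, with a median log2 fold change of -0.27. Isg15, a ubiquitin-like modifier, fell by 1.16 (log2), and Stat2, a transcription factor of the type I interferon response, fell by 1.05 (log2). Oasl2 fell by 1.03 (log2) and Ifit3b fell by 1.15 (log2), a gene with close copies. Gbp5, a guanylate-binding protein of the inflammasome, rose from 3.54 ± 0.72 to 62.5 ± 4.6 CPM and Irf1, a factor shared by the interferon and NF-kB responses, from 70.8 ± 5.3 to 139 ± 4.2 CPM. Genes of antigen presentation by MHC class I rose in 13 of 17 and fell in 2, with a median of 0.48. H2-K1 had a log2 fold change of 1.5 ± 0.05 and H2-D1 one of 0.88 ± 0.05, both with near-identical relatives, while the light chain gene B2m rose from 1438 ± 56.4 to 2286 ± 150.4 CPM and the peptide transporter gene Tap1 fell by 0.40 (log2).

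**Figure D2:**
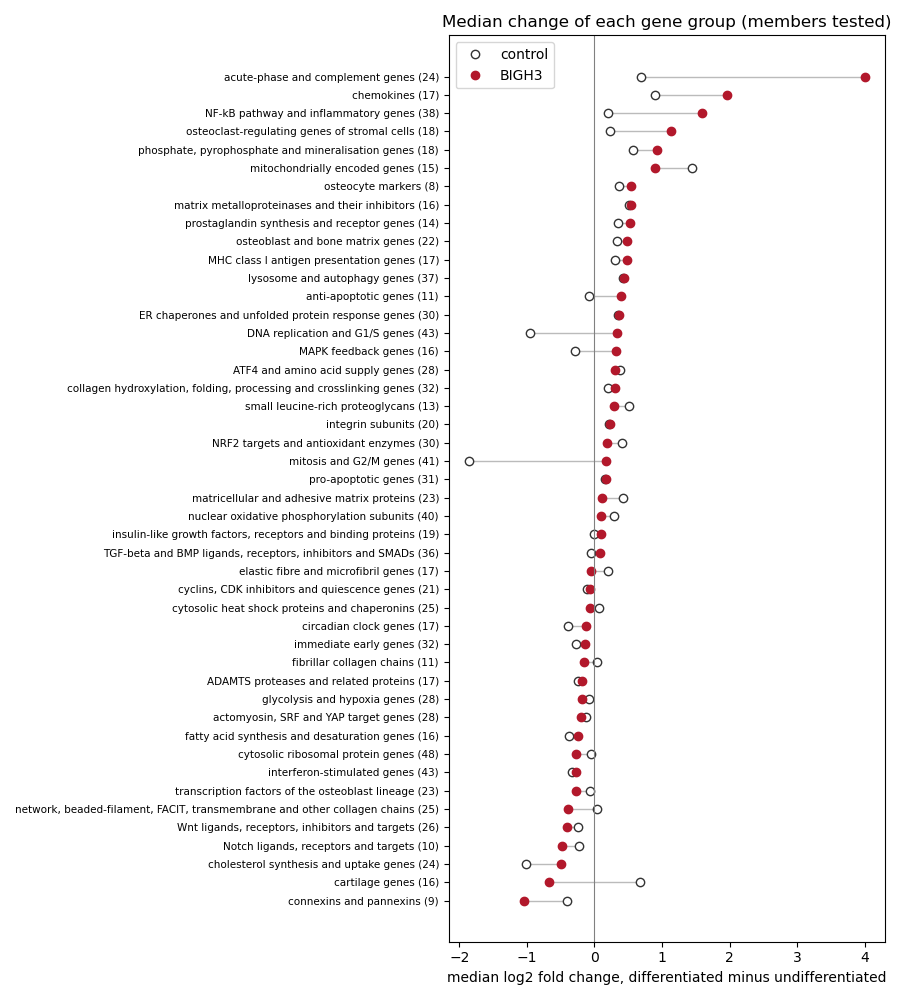
Median log2 fold change of each gene group for differentiated against undifferentiated cells, with BIGH3 as filled circles and in controls as open circles, and the number of members tested in brackets. The acute phase, chemokine and NF-kB groups stand far to the right with BIGH3, at 4.01, 1.96 and 1.60, and the cell cycle groups lie near 0 with BIGH3 and to the left in controls, at -0.95 for G1/S and -1.86 for G2/M.

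Of the matrix genes of bone, 9 of 22 tested rose and 8 fell (median 0.48). Spp1, which encodes osteopontin, an acidic phosphoprotein of bone that binds mineral and integrins, stood at 1831, 1966 and 1965 CPM in undifferentiated and 11009, 10687 and 10102 CPM in differentiated libraries. It rose 5.52-fold, a log2 fold change of 2.46 ± 0.05 (adjusted p = 5.28e-20). Postn, encoding the matricellular protein periostin, rose from 766 ± 13.9 to 2637 ± 29.04 CPM, and Mgp, an inhibitor of calcification, from 463 ± 22.2 to 1076 ± 66.6 CPM. Tgfbi, the mouse gene of BIGH3 itself, stood at 35.9, 33.00 and 35.3 CPM in undifferentiated and 149, 148 and 134 CPM in differentiated libraries and rose 4.14-fold (log2 fold change 2.05 ± 0.06, adjusted p = 2.13e-17). Of 13 small leucine-rich proteoglycan genes tested 8 rose and 4 fell (median 0.29), and among the fallers Omd, which encodes osteomodulin, fell by 1.69 (log2) and Ogn, osteoglycin, fell by 1.02 (log2), from 1206 to 594 CPM. Kazald1, an IGF-binding protein-like gene of bone, fell by 2.1 (log2). Col1a1, the main collagen of bone, fell by 0.62 (log2), from 2720.5 ± 328 to 1768 ± 135 CPM. Sparc, osteonectin, was not called (log2 fold change 0.10 ± 0.05), but was called without differentiated library 3 (0.14, adjusted p = 0.00415). Osteocalcin genes are near-identical copies and uncertain: the mean level of Bglap went from 3.0 to 3.86 CPM and was not called, and that of Bglap2 from 4.36 to 7.46 CPM. Ibsp, bone sialoprotein, had 1 read over the undifferentiated group and 35 over the differentiated one, a ratio of rates of 38.8 with a 95% counting interval of 6.52 to 1580.

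Genes of phosphate and mineral handling rose in 13 of 18 tested and fell in 1, with a median log2 fold change of 0.92. Alpl, the alkaline phosphatase that frees phosphate from β-glycerophosphate, rose 17.2-fold but from a low level, 0.608, 0.468 and 0.207 CPM in undifferentiated and 7.61, 6.84 and 7.89 CPM in differentiated libraries. Phospho1, a phosphatase of matrix vesicles, rose from 1.13 ± 0.44 to 6.84 ± 0.55 CPM and Nt5e, which makes adenosine at the cell surface, from 6.88 ± 0.35 to 26.9 ± 1.7 CPM. Slc20a1, a phosphate importer, rose 2.03-fold, whereas the phosphate exporter gene Xpr1 fell by 0.49 (log2). On the TPM scale the median of the group was 0.31.

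All 8 osteocyte markers tested were called, 6 higher and 2 lower (median 0.55). Dmp1, a phosphoprotein of the osteocyte matrix, stood at 61.9, 58.8 and 59.1 CPM in undifferentiated and 80.1, 81.8 and 95.3 CPM in differentiated libraries, a log2 fold change of 0.52 ± 0.07 (adjusted p = 1.7e-06). Phex, an endopeptidase that limits FGF23 output, stood at 7.41, 8.61 and 7.21 CPM in undifferentiated and 20.9, 25.2 and 25.6 CPM in differentiated libraries and rose 3.09-fold. Fam20c, the kinase of secreted phosphoproteins such as osteopontin, rose from 97.5 ± 7.6 to 309.5 ± 10.4 CPM, and Pdpn, a membrane protein of early osteocytes with dendrites, from 196 ± 8.3 to 283 ± 17.8 CPM. Tnfrsf11b, the decoy receptor osteoprotegerin, rose from 59.5 ± 4.5 to 107 ± 4.7 CPM and Ackr3, a scavenging receptor of CXCL12, from 30.5 ± 1.1 to 44.9 ± 1.5 CPM. The homeobox gene Irx5 fell by 1.5 (log2) and the hyaluronan receptor gene Cd44 fell by 0.54 (log2). Transcription factors of the osteoblast line fell more often than they rose, 12 against 7 of 23, with a median of -0.28. Runx2, the master factor of the line, fell by 0.18 (log2), from 50.01 ± 3.4 to 43.98 ± 1.5 CPM, and was not called without undifferentiated library 2 or 3 or differentiated library 2 (log2 fold change -0.16 each, adjusted p = 0.0651, 0.0716 and 0.066). Sp7, which acts after it, had group means of 0.198 and 0.206 CPM and was not called. Among the BMP-responsive inhibitors of differentiation Id4 fell by 2.59 (log2), Id1 fell by 2.13 (log2) and Id2 fell by 0.91 (log2). The homeobox genes Dlx5 and Msx1 fell by 1.44 and 1.34 on the log2 scale.

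**Figure D3:**
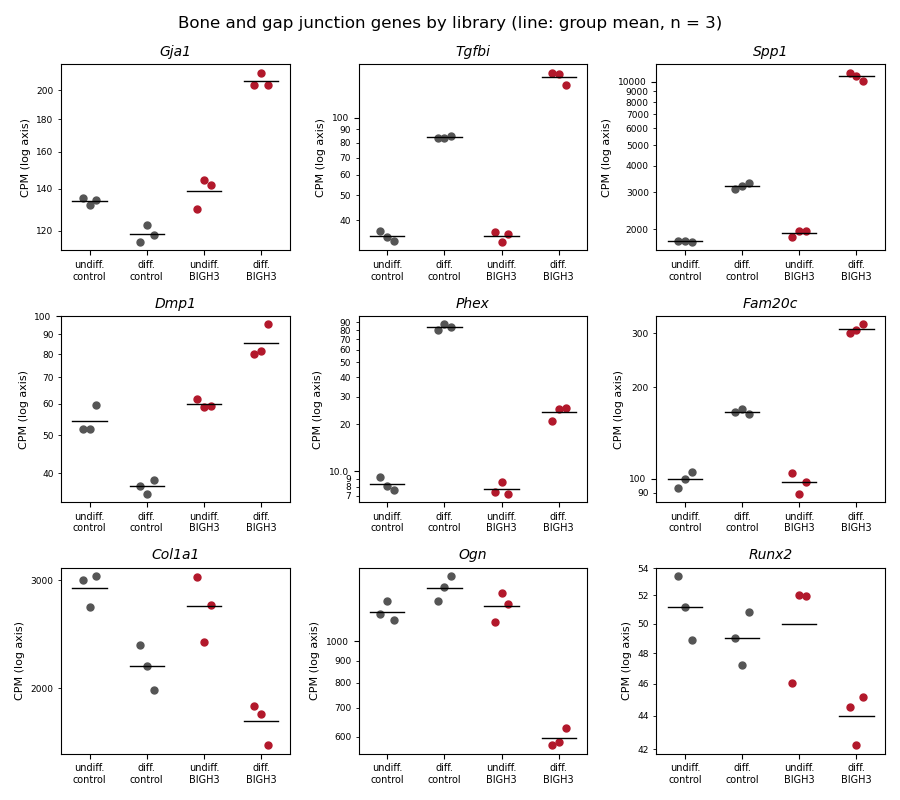
Level in CPM on a log axis of Gja1, Tgfbi, Spp1, Dmp1, Phex, Fam20c, Col1a1, Ogn and Runx2 in every library of the 4 groups, with a line at the mean of each group. With BIGH3 the differentiated libraries of Spp1 lie at 10102 to 11009 CPM, above all other groups, and those of Gja1 at 204 to 213 CPM against 130.04 to 144 CPM in undifferentiated cells.

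The genes of gap junctions, the channels that join osteocytes, split. Gja1, which encodes connexin 43, the main connexin of bone cells and the gene the study asked about, stood at 130.04, 144 and 142 CPM in undifferentiated and 204, 213 and 204 CPM in differentiated libraries. It rose 1.49-fold (log2 fold change 0.58 ± 0.05, adjusted p = 2.49e-09) with no overlap. Of 9 connexin, pannexin and junction genes tested it alone rose, and 6 fell, with a median of -1.05. Gjb5, a connexin gene, fell by 1.88 (log2), from 1.38 ± 0.24 to 0.369 ± 0.13 CPM. Panx3, which forms channels in skeletal cells, stood at 14.3, 15.8 and 14.6 CPM in undifferentiated and 4.47, 5.03 and 5.15 CPM in differentiated libraries and fell by 1.61 (log2). Gjc1 and the scaffold gene Tjp1 each fell by 0.36 on the log2 scale. Gjb1 stood at or below 0.616 CPM and was not called, and its sign turned without differentiated library 3 (log2 fold change -1.80).

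Collagen genes fell more often than they rose, and the genes of their processing rose more often than they fell. Of 11 fibrillar collagens tested 3 rose and 6 fell, and of 25 other collagens 7 rose and 12 fell. Col2a1, the collagen of cartilage, stood at 128, 100.5 and 109 CPM in undifferentiated and 5.7, 6.68 and 7.61 CPM in differentiated libraries and fell 16.97-fold (log2 fold change -4.09 ± 0.12, adjusted p = 1.88e-12). Col6a3, a chain of the collagen that surrounds cells, fell by 1.34 (log2), Col28a1 fell by 1.9 (log2) and Col5a1 fell by 0.58 (log2). Col24a1, found in developing bone, rose from 13.2 ± 1.8 to 42.2 ± 2 CPM and Col11a1 from 106 ± 7.2 to 169 ± 5.9 CPM. By contrast 24 of 32 genes of collagen modification and cross-linking rose and 4 fell (median 0.30), with 18 and 4 when scaled by library totals and 12 and 4 on the TPM scale. Lox, the oxidase that starts the cross-links, rose from 584 ± 7.4 to 1080.2 ± 20.9 CPM. Plod2, which hydroxylates telopeptide lysines, rose from 416 ± 11.7 to 748 ± 7.9 CPM, and P3h2, a prolyl 3-hydroxylase, 2.62-fold. Adamts14, a procollagen N-proteinase, rose 3.4-fold. P4ha1, a catalytic subunit of prolyl 4-hydroxylase that uses ascorbate, fell by 0.32 (log2), while P4ha2 had a log2 fold change of 0.48 ± 0.07. The enhancer of C-proteinase Pcolce2 fell by 1.92 (log2).

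Genes of folding and export in the endoplasmic reticulum rose with small steps, 27 of 30 tested against 2 that fell (median 0.37). The counts were 21 and 2 by library totals and 10 and 2 on the TPM scale. Sec24d, a coat protein that carries procollagen, rose from 106 ± 5.2 to 241 ± 2.3 CPM. The chaperone gene Hspa5 (BiP) had a log2 fold change of 0.47 ± 0.05 and Calr (calreticulin) one of 0.67 ± 0.04. Lysosomal and autophagy genes rose in 25 of 37 and fell in 6 (median 0.44). Ctsk, the collagen-degrading cathepsin of osteoclasts, rose from 2.54 ± 0.17 to 17.2 ± 0.58 CPM, Ctsb from 694 ± 29.3 to 1478 ± 12.2 CPM and Hexa from 187 ± 4.9 to 402 ± 27.1 CPM. Tfeb, a transcription factor of lysosome genes, fell by 0.69 (log2).

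Proteins that decorate or cut the matrix included some of the largest rises. Lum, which encodes lumican, a proteoglycan that spaces collagen fibrils, stood at 2.39, 3.6 and 3.36 CPM in undifferentiated and 323, 320.3 and 322 CPM in differentiated libraries, a 104-fold rise (log2 fold change 6.7 ± 0.09, adjusted p = 6.64e-22). Dcn, decorin, rose from 239 ± 13.7 to 1019 ± 38.2 CPM, while Aspn, asporin, fell by 1.2 (log2). Mmp13, the collagenase of bone and cartilage, stood at 0.527, 0.609 and 0.704 CPM in undifferentiated and 159.97, 158 and 147 CPM in differentiated libraries and rose 250.4-fold (adjusted p = 5.16e-21). Of 16 metalloproteinases and their inhibitors tested, 9 rose and 3 fell. Mmp9 rose from 9.48 ± 1.1 to 55.4 ± 0.41 CPM, Mmp14, a membrane-bound activator, from 364 ± 16.1 to 761 ± 37.8 CPM and the inhibitor gene Timp1 from 119 ± 7.9 to 439 ± 75.7 CPM, whereas Timp3 fell by 0.30 (log2). Thbs2, thrombospondin 2, rose from 451 ± 19.8 to 2036 ± 55.6 CPM and Ccn5, a member of the CCN family, from 71.9 ± 6.8 to 324 ± 16.3 CPM, and Ccn3 fell by 1.3 (log2). Ltbp2, a microfibril protein, rose from 2.73 ± 0.55 to 95.9 ± 3 CPM, whereas Ltbp4, a carrier of latent TGF-beta, fell by 1.75 (log2). Tnc, tenascin C, fell by 0.64 (log2).

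Cartilage genes were lower in 9 of 16 tested and higher in 4 (median -0.67). Sox9, the master factor of chondrocytes, stood at 219, 226 and 215 CPM in undifferentiated and 122, 115 and 122 CPM in differentiated libraries and fell by 0.88 (log2) (adjusted p = 2.21e-12). Cytl1, a secreted protein of chondrocytes, fell by 1.85 (log2). Beside Col2a1, the collagen gene Col11a2 fell by 1.93 (log2). The cartilage collagen gene Col10a1 went the other way, with 2 reads over the undifferentiated group and 57 over the differentiated one. The ratio of rates was 31.6 with a 95% counting interval of 8.36 to 267. The direction of this group was the same by library totals (9 lower, 4 higher) and on the TPM scale (9 lower, 2 higher).

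Secreted growth regulators and their inhibitors changed on both sides. Grem1, a secreted antagonist of BMPs, stood at 1.7, 3.0 and 2.03 CPM in undifferentiated and 94.7, 90.8 and 91.1 CPM in differentiated libraries and rose 41.5-fold (adjusted p = 6.35e-17). Smad6, an inhibitor and target of BMP signalling, fell by 1.66 (log2), and Smad9 fell by 1.25 (log2). Of 36 TGF-beta and BMP genes tested 15 rose and 16 fell. Skil rose 3.45-fold and Tgfbr3, the co-receptor betaglycan, 2.61-fold. Bmp4 fell by 0.75 (log2). IGF pathway genes rose in 9 of 19 and fell in 7. Igfbp4 rose from 509 ± 28.7 to 2463 ± 122 CPM, Igfbp5 from 11.5 ± 0.13 to 80.7 ± 2.3 CPM, Igf1 from 222 ± 8.1 to 737 ± 17.3 CPM and Pappa, the protease that cuts IGFBP4, from 15.6 ± 0.93 to 72.2 ± 2.7 CPM. The imprinted long RNA H19 stood at 121, 108 and 118 CPM in undifferentiated and 22.7, 18.2 and 16.96 CPM in differentiated libraries and fell 5.96-fold (log2 fold change -2.57 ± 0.14, adjusted p = 9.98e-08).

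Wnt pathway genes fell in 16 of 26 tested and rose in 6 (median -0.40). Sfrp2, a secreted Wnt modulator, fell by 1.21 (log2), Wnt10b fell by 0.95 (log2) and the co-receptor gene Lrp6 fell by 0.70 (log2). Lef1, a nuclear partner of beta-catenin, rose from 2.24 to 6.23 CPM. Notch genes fell in 6 of 10 and rose in 2. The ligand gene Jag1 fell by 1.28 (log2), the target gene Hes1 fell by 1.59 (log2) and the receptor gene Notch1 fell by 0.89 (log2).

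Immediate early genes, which serum and stretch switch on within minutes, fell and rose in like numbers, 14 and 12 of 32. The largest fall among called genes with a mean log2 CPM of at least 2 and no overlap between the groups was in Fos. This subunit of AP-1 stood at 47.7, 33.00 and 30.1 CPM in undifferentiated and 1.19, 1.39 and 1.51 CPM in differentiated libraries. It fell 27.2-fold (log2 fold change -4.77 ± 0.24, adjusted p = 2.6e-08). Egr1, a zinc finger factor, fell by 2.84 (log2), from 161 ± 12.3 to 22.5 ± 2.1 CPM, and Ier2 fell by 2.71 (log2). Zfp36, whose product destabilises inflammatory mRNAs, fell by 2.21 (log2). Egr2, a relative of Egr1, stood at 24.1, 20.03 and 18.8 CPM in undifferentiated and 3.65, 3.85 and 3.64 CPM in differentiated libraries and fell by 2.5 (log2). On the other side Jun rose from 123 ± 9.1 to 225 ± 18.6 CPM, Ier3 2.1-fold and the phosphatase gene Dusp1 from 16.1 ± 1.3 to 29.7 ± 2.3 CPM. One promoter of Egr2 (RefSeq, GRCm38.p6, chr10:67537619-67537918, plus strand) is shown with the CArG box, the motif bound by serum response factor, in capitals.
Egr2: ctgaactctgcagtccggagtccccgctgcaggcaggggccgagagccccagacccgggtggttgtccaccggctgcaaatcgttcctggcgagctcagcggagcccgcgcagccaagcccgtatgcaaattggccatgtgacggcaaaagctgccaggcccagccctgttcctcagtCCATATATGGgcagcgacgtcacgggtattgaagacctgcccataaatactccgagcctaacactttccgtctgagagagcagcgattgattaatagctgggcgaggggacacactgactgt
The CArG box was in 7 of 33 promoters of the immediate early list (21.2%), several of them alternative starts of 1 gene, and in 1.63% of all promoters of the table. Of 11 promoters of the 12 largest falls 4 held it, all of them starts of Egr2. No promoter of Fos in the table held the box within these bases.

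Genes of the cell cycle changed little with BIGH3. Of 43 G1/S genes tested 24 rose and 2 fell (median 0.33), with 19 and 4 by library totals and 9 and 7 on the TPM scale. Of 41 G2/M genes 18 rose and 4 fell (median 0.18), and this direction turned with the scaling: 9 rose and 6 fell by library totals, and 4 rose and 8 fell on the TPM scale (median -0.02). None of either list changed more than 2-fold. Tk1, thymidine kinase, rose from 21.5 ± 0.76 to 41.3 ± 1.7 CPM, Mcm10 from 11.2 ± 0.43 to 18.6 ± 1.5 CPM and the mitotic kinase gene Cdk1 from 66.6 ± 3.7 to 109 ± 8.7 CPM. Top2a, the topoisomerase of dividing cells, rose from 221 ± 13.4 to 339 ± 27.1 CPM, whereas Racgap1 fell by 0.27 (log2). Of 21 cyclins, CDK inhibitors and quiescence genes tested, 7 rose, 9 fell and 5 were not called (median -0.07). Among the brakes of the cycle in this mixed group, Cdkn1a (p21) fell by 0.57 (log2) and Cdkn1b (p27) fell by 0.24 (log2).

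Sterol synthesis genes fell together, 18 of 24 tested, with 1 that rose (median -0.49). Hmgcs1, which acts near the start of the pathway, stood at 175, 172 and 161 CPM in undifferentiated and 93.4, 87.1 and 106 CPM in differentiated libraries and fell by 0.83 (log2). Srebf2, the factor that controls the pathway, fell by 0.71 (log2) and Sqle fell by 0.62 (log2). Ebp rose (log2 fold change 0.56 ± 0.07). Of 16 fatty acid genes 9 fell and 3 rose. Acsl3 fell by 1.25 (log2) and Scd2, a desaturase, fell by 1.03 (log2), from 2138 ± 78.8 to 1049.5 ± 42.2 CPM.

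Glycolysis and hypoxia genes fell in 15 of 28 tested and rose in 6 (median -0.19). Ndrg1, a hypoxia target, fell by 2.23 (log2), from 169 ± 12.7 to 35.9 ± 2 CPM. Against the group Pfkfb3, which makes the activator of phosphofructokinase, rose 4.65-fold, Vegfa 3.09-fold and Hk2, hexokinase 2, 2.36-fold. Of 30 genes of the oxidative stress response, 18 rose and 6 fell. Sod2, the superoxide dismutase of mitochondria and a target of NF-kB, rose from 87.1 ± 1.3 to 281 ± 21.8 CPM and Fth1, ferritin heavy chain, from 3139.9 ± 137 to 8979 ± 749.5 CPM. Ribosomal protein genes fell in 38 of 48 and rose in 1 (median -0.27), with reads that pseudogenes may share. Transcripts of the mitochondrial genome rose in 12 of 15 and fell in none, with a summed level of 42820 to 57220 CPM undifferentiated and 84750 to 94270 CPM differentiated. Unmatched transcripts held 1.28% to 1.54% and 2.49% to 3.67% of the reads of the groups. Whether RNA quality or recovery plays a part in these rises was not tested.

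Of 31 genes that promote cell death 15 rose and 9 fell (median 0.17), while on the TPM scale 8 rose and 12 fell. Bax, which opens the mitochondrial membrane, fell by 0.23 (log2), from 97.97 ± 4.3 to 83.6 ± 4.8 CPM, and its opponent Bcl2 rose from 13.98 ± 0.87 to 18.4 ± 0.71 CPM. Fas, a death receptor, stood at 26.4, 31.8 and 32.9 CPM in undifferentiated and 162, 166 and 147 CPM in differentiated libraries and rose 5.22-fold (adjusted p = 2.04e-16), and the inflammatory caspase genes Casp4 and Casp1 rose from 16.6 to 54.3 CPM and from 0.175 to 10.1 CPM. Bbc3 (Puma) fell by 0.84 (log2). Inhibitors of death rose in 8 of 11 and fell in 3, among them Birc3, a ubiquitin ligase of the NF-kB response, with a 4.46-fold rise and Cflar with 1.8-fold. Of 18 genes that bone cells use to control osteoclasts, 12 rose and 4 fell (median 1.13). Il1rl1, the receptor of IL-33, rose from 5.11 ± 0.6 to 55.2 ± 9.8 CPM, and Ptgs2, the inducible cyclooxygenase, from 78.9 ± 3.1 to 243 ± 7.1 CPM. Ptgfr, a receptor of prostaglandin F, rose 19.6-fold, while the prostaglandin E receptor gene Ptger1 fell by 2.14 (log2).

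Markers of other cell types were mostly near 0. Among 17 liver markers the summed level ranged from 5.56 to 31.5 CPM undifferentiated and from 29.1 to 89.7 CPM differentiated, and of 13 tested none fell and 2 rose, Trf (transferrin, from 0.531 ± 0.46 to 21.8 ± 2.5 CPM) and Vtn. Without both liver-rich libraries the log2 fold changes of Saa3, Hp and Lcn2 were 9.36, 8.18 and 7.54. The libraries kept still differed in the liver list, at 8.735 and 5.563 CPM undifferentiated and 29.08 and 29.95 CPM differentiated. Most of the differentiated sums in these libraries came from Trf, whose mean over the whole differentiated group was 21.8 CPM against 0.531 CPM undifferentiated. Whether liver transcripts play a part in these rises was not tested. Of 3 adipocyte markers tested 2 rose and none fell. The list summed to 3.89 to 5.07 CPM and 48.3 to 56.1 CPM, nearly all from Cd36, a fatty acid transporter that rose from 3.73 ± 0.51 to 50.6 ± 3.4 CPM, while Adipoq had 3 and 22 reads in the groups. Of 12 macrophage and osteoclast markers 5 were tested, 3 rose and none fell. Lyz2, lysozyme, rose from 24.6 ± 1.1 to 39.3 ± 3.6 CPM and Acp5, the acid phosphatase of osteoclasts, from 0.0744 ± 0.071 to 0.592 ± 0.09 CPM. Fcer1g, an Fc receptor chain, had 2 reads over the undifferentiated group and 86 over the differentiated one, a ratio of rates of 47.7 with a 95% counting interval of 12.8 to 400. The list summed to 25.4 to 27.7 CPM and 37.2 to 43.8 CPM, and the defining gene Adgre1 had 0 and 9 reads in the groups. Of 4 epithelial markers tested 2 fell and none rose. The list summed to 18.5 to 24.9 CPM and 3.38 to 9.89 CPM, and of these Krt14, a keratin of basal epithelium, stood at 12.5, 9.74 and 10.4 CPM in undifferentiated and 1.55, 1.6 and 1.4 CPM in differentiated libraries and fell by 2.84 (log2). The fast muscle troponin gene Tnnt3 fell by 2.88 (log2), from 20.1 ± 1.2 to 2.7 ± 0.69 CPM, the 1 fall among 7 muscle markers tested, of which 4 rose, and the list summed to 28.2 to 33.9 CPM and 19.8 to 23.8 CPM. The part of such cells in the results was not tested.

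Several of the largest changes belonged to no list. F13a1, coagulation factor XIII A, a transglutaminase, rose from 0.911 ± 0.054 to 47.6 ± 4.1 CPM and Cyp2f2, a cytochrome P450, from 0.646 ± 0.11 to 33.2 ± 2.3 CPM. Among the falls, Sox11, a transcription factor of progenitors, stood at 21.3, 22.2 and 22.9 CPM in undifferentiated and 2.74, 3.53 and 2.57 CPM in differentiated libraries and fell 7.51-fold. Lrrc17, a secreted inhibitor of osteoclast formation, fell by 2.47 (log2) and the carboxylesterase gene Ces2g fell by 2.46 (log2). Libraries without overlap between the groups were a condition for naming these 5 genes.

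At the level of transcripts, 7316 of 40063 tested (18.3%) were called, 3935 higher and 3381 lower. This balance turned with the scaling: 2753 were higher and 5304 lower by library totals, and 2782 and 7749 on the TPM scale. A change in usage, that is in the share of a gene's reads held by one transcript, was called in 315 of 9175 genes with several transcripts (3.43%), and the gene total was not called in 89 of them. The count was 155 without the liver-rich libraries and 871 by an F test per gene. On simulated data the test missed switches and also called genes without one where a transcript varied strongly between replicates, so a fit on transcripts of low dispersion and one with limma were added after the data were seen. They called 928 of 3981 and 1106 of 9175 genes, and 84 genes were called in all 3 fits. The shares are estimates that the mapping model divides between transcripts, and the error of that division is not in the test.

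Fn1, which encodes fibronectin, changed in form without a called change in total. The mean level of the gene went from 6716 ± 244 to 6442 ± 506 CPM and was not called (log2 fold change -0.06 ± 0.06). Transcript Fn1-201, which holds both extra domain exons, took 28.5% ± 0.32 of reads undifferentiated and 5.58% ± 0.5 differentiated. Fn1-214, which lacks the extra domain B exon and keeps the extra domain A exon, took 20.96% ± 1 of reads undifferentiated and 51.3% ± 3.6 differentiated. The first fell and the second rose in share (adjusted p = 1.26e-10 for the gene). Of the 13 transcripts tested only Fn1-201 holds the extra domain B exon. Its share of 28.5% ± 0.32 undifferentiated and 5.58% ± 0.50 differentiated (SD, n = 3) is of all reads of the gene, short transcripts included. It is not a measured inclusion of the exon. Transcripts with the extra domain A exon held 49.5% ± 1.4 and 56.9% ± 3.1. Both domains are fibronectin type III repeats of the forms that cells deposit in matrix. The extra domain B exon (GENCODE M21, GRCm38, chr1:71613763-71614035, minus strand, exon 25 of 46 in Fn1-201) is shown in capitals with 12 bases of each neighbour.
Fn1 extra domain B exon: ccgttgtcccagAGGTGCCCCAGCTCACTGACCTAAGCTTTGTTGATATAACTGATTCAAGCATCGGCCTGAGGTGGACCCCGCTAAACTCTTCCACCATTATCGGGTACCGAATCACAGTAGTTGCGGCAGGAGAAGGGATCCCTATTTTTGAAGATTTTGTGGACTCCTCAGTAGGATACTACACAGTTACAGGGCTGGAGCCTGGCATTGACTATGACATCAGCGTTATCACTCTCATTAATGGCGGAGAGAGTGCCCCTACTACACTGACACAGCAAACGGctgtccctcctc

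Postn changed both in total and in form. Transcript Postn-204, which lacks exons 17 and 21 of Postn-202, the form with the longest coding sequence, took 6.64% ± 1.6 of reads undifferentiated and 65.9% ± 2.2 differentiated. Postn-201 took 43.7% ± 4.1 of reads undifferentiated and 19.4% ± 1.4 differentiated and Postn-203 32.98% ± 3.2 of reads undifferentiated and 9.47% ± 0.7 differentiated (adjusted p = 5.94e-26 for the gene). Transcripts with the first of these exons held 43.2% ± 2.2 undifferentiated and 10.3% ± 0.82 differentiated, and those with the second 54.8% ± 4.3 and 20.2% ± 1.6. Both exons code for parts of the C-terminal region that is known to be spliced in several ways. They are shown in capitals with 12 bases of each neighbour (GENCODE M21, GRCm38, plus strand), the first at chr3:54380412-54380492 and the second at chr3:54385671-54385754.
Postn exon 17: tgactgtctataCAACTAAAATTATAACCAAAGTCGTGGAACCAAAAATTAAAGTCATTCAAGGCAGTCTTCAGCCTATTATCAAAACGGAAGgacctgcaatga
Postn exon 21: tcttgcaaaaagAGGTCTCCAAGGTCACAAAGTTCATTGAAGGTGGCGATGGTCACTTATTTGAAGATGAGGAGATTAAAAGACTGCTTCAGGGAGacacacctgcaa

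**Figure D4:**
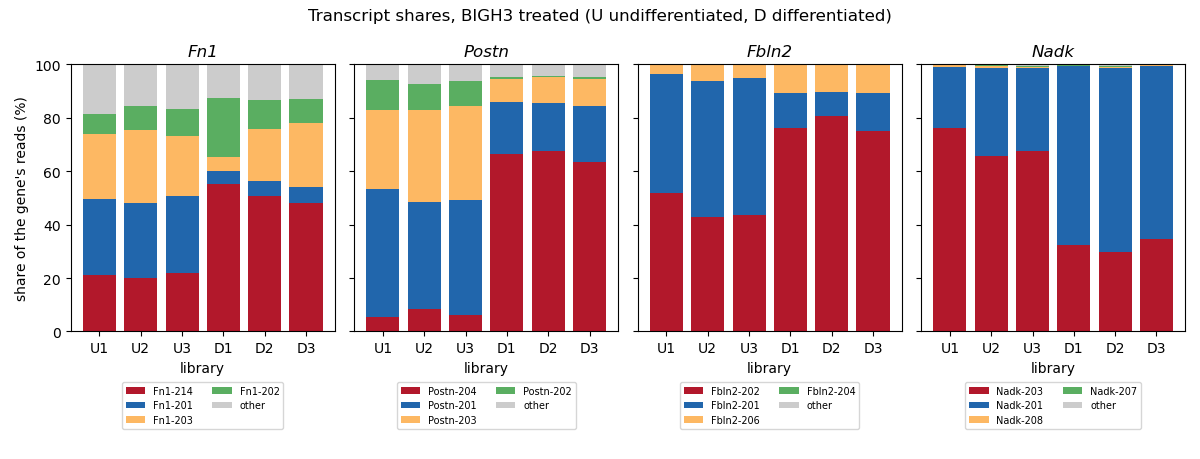
Share of the reads of Fn1, Postn, Fbln2 and Nadk held by their main transcripts in each of the 6 BIGH3 treated libraries, in percent, with smaller transcripts summed in grey. Fn1-214 and Postn-204 hold the largest share in all 3 differentiated libraries, at 47.95 to 55.03% and 63.4 to 67.6%.

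Large changes in share were also called in genes of other functions. Fbln2, a basement membrane and elastic fibre protein, fell by 0.92 (log2) as a gene, and the share of Fbln2-201, the form with an additional coding exon of 141 bases, went from 49.0% ± 3.7 to 12.2% ± 2.7. Nadk, which makes NADP, shifted from Nadk-203 to Nadk-201, whose share was 28.9% ± 5.3 of reads undifferentiated and 66.6% ± 2 differentiated. Both were called in all 3 fits, as were Fn1, Postn, Cp, Tnip1, Bmp1, Clk1 and Pam. For Zfp36 the share of Zfp36-201 was 29.3% ± 1.1 of reads undifferentiated and 90.4% ± 8.7 differentiated and for Plac8 that of Plac8-201 was 50.2% ± 7.7 of reads undifferentiated and 98.9% ± 0.36 differentiated, both called in the main and the limma fit and not tested in that of low dispersion. Zfp423-203 was listed at 0 in the undifferentiated libraries and held 33.9% ± 9.1 in the others. Oxr1-202 was likewise listed at 0 and then held 35.6% ± 11, and Cobll1-203 took 65.8% ± 16 and then 0. Oxr1 and Cobll1 were not called by limma (adjusted p = 0.0611 and 0.634).

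The effect of the medium was not the same with and without BIGH3. The difference between the effects was called for 4730 of 14711 genes (32.2%). Of the 8329 genes called with BIGH3, 5207 were called in the same direction in controls, 670 in the opposite one and 2452 were not called there. For 3364 of the 8329 the difference itself was called. In controls alone 8491 of 14711 genes (57.7%) were called. The effects with and without BIGH3 share no library. Of the 1168 genes more than 2-fold higher with BIGH3 the rise was larger than in controls for 452, smaller for 89 and not different by the test for 627.

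**Figure D5:**
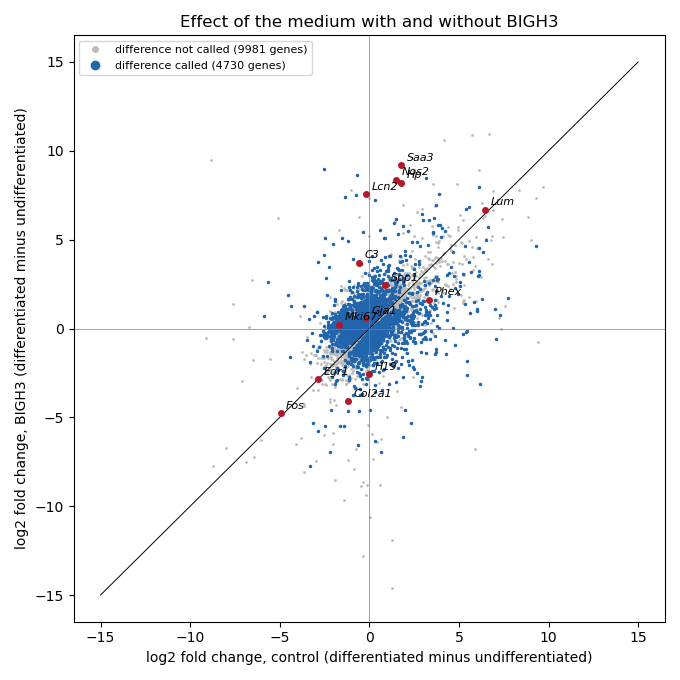
Log2 fold change between differentiated and undifferentiated cells in controls (x axis) and with BIGH3 (y axis) for the 14711 genes tested, with genes whose difference was called in blue, other genes in grey, labelled genes in red and the line of equal change. Saa3, Hp, Lcn2, C3 and Nos2 lie far above the line, Col2a1 and H19 below it, and Fos, Egr1 and Lum close to it.

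In controls the median log2 fold change was 0.69 for acute phase and complement genes and 0.21 for NF-kB genes, against 4.01 and 1.60 with BIGH3, and the effect was larger with BIGH3 for 17 of 24 and 30 of 38 of them. C3 changed by -0.56 in controls, a difference of 4.27 ± 0.07 (adjusted p = 2.39e-20), and Lcn2 by -0.18, a difference of 7.76 ± 0.60 (adjusted p = 8.33e-06). Cell cycle genes differed in nearly every member, 41 of 43 G1/S genes and 39 of 41 G2/M genes, all with a positive difference. Their medians in controls were -0.95 and -1.86. Mki67, the proliferation marker, had a log2 fold change of 0.22 with BIGH3 and -1.68 in controls. Gja1 changed by -0.17 in controls, where it was called lower, and the difference was 0.75 ± 0.07 (adjusted p = 2.89e-08). Matrix and mineral genes went both ways: the rise of Spp1 was larger with BIGH3 by 1.6, Mgp changed by -0.53 in controls, a difference of 1.74, while the rises of Phex and Tnfrsf11b were smaller, with differences of -1.72 and -1.58. Bglap2 changed by 2.34 in controls. For Lum, Fos, Egr1, Igfbp4 and Lox the difference was not called, at 0.25 ± 0.15, 0.19 ± 0.40, 0.04 ± 0.10, 0.01 ± 0.08 and -0.04 ± 0.06.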

How the data were processed

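RNA of 12 libraries was sequenced after preparation with a KAPA kit. The authors deposited estimated counts per transcript and TPM, and tools listed in the submitters' processing notes, without versions or order, were Salmon, StringTie, cutadapt and FastQC, with mm10 as the build. The strand setting is not stated, so overlapping and antisense genes cannot be told apart. Of 147828 transcripts, 137063 (92.7%) matched GENCODE M21 by identifier without version, and estimated counts were summed over 51707 genes and rounded. edgeR 4.0.16 (TMM, filterByExpr, robust quasi-likelihood test) was fitted over all 12 libraries with 1 term per group, 8 residual degrees of freedom and Benjamini-Hochberg adjustment over all genes tested. The biological coefficient of variation was 8.18%. CPM are scaled to the TMM library size, and values after ± are SD (n = 3) for levels and standard errors for log2 fold changes. Transcript usage was tested with diffSpliceDGE. Intervals and floors cover counting error only. The tests were checked on simulated data.

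Alternatives were DESeq2 1.42.0, limma 3.58.1 on log2(TPM + 1), library totals, length offsets, other filters, a replicate block and left-out libraries. Text names the 12 largest rises and falls among called genes with a mean log2 CPM of at least 2. Genes whose libraries overlapped between the groups were left out of that ranking. Connexins, osteocyte markers, up to 6 called genes per list, markers above 10 CPM and the largest usage changes are named too. Those usage changes were taken from genes with a transcript whose share did not overlap between the groups. Other genes were chosen after their values were seen. Some genes that the rule names are not reported here. Members and lists were chosen with earlier results of these data known.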

Additional observations from a re-analysis of the deposited data

Results flagged for a closer look

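Results are listed here because the effect of the medium with BIGH3 differed from that in controls by the test of the difference itself, which was called for 4730 genes. That is 32.2% of the 14711 genes tested. Of 201 genes named in the text and tested, Col10a1 left out, 155 passed it, 97 with a positive and 58 with a negative difference. Many of the 201 were named for large changes or after their values were seen. Their count is therefore shaped by that choice. Values are the log2 fold change with BIGH3 minus that in controls.

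Among acute phase and complement genes, the positive differences were 7.76 for Lcn2, 7.41 for Saa3, 6.45 for Hp, 6.1 for Serpina3f, 4.83 for Serpina3g, 4.27 for C3, 1.81 for C4b, 1.61 for Cp, 1.27 for Cfb, 0.60 for C1ra and 0.47 for C1s1. Among NF-kB and inflammatory genes, the positive differences were 6.88 for Nos2, 3.3 for Nfkbiz, 2.84 for Il6, 2.46 for Bcl3, 2.08 for Tnfaip3, 1.93 for Lif, 1.7 for Cebpd, 1.46 for Sod2, 1.43 for Birc3, 1.42 for Ptgs2, 1.26 for Il33, 1.13 for Tnip1, 1.09 for Nfkb2, 0.91 for Nfkb1, 0.81 for Nfkbia, 0.78 for Tnfaip2 and 0.64 for Cebpb. A negative difference in NF-kB and inflammatory genes was -0.37 for Il1rn. Among chemokines, the positive differences were 7.59 for Cxcl5, 6.59 for Cxcl1, 2.63 for Ccl2, 1.33 for Ccl8, 1.23 for Cxcl12, 1.11 for Ccl7, 1.06 for Cx3cl1 and 1.03 for Cxcl9. Among interferon and MHC class I genes, the positive differences were 2.16 for Gbp5, 0.83 for Irf1, 0.75 for H2-K1, 0.29 for H2-D1 and 0.27 for Tap1. A negative difference in interferon and MHC class I genes was -0.49 for Isg15. Among connexins and pannexins, the positive difference was 0.75 for Gja1. Negative differences in connexins and pannexins were -2.44 for Panx3 and -1.81 for Gjb5.

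Among osteocyte and bone matrix genes, the positive differences were 1.74 for Mgp, 1.6 for Spp1, 1.07 for Dmp1, 0.93 for Fam20c, 0.77 for Tgfbi, 0.50 for Pdpn, 0.38 for Cd44 and 0.17 for Postn. Negative differences in osteocyte and bone matrix genes were -2.1 for Bglap, -1.94 for Kazald1, -1.91 for Omd, -1.72 for Phex, -1.58 for Tnfrsf11b, -1.56 for Bglap2, -1.21 for Ogn, -0.78 for Irx5 and -0.38 for Sparc. Among mineral handling and osteoclast control, the positive differences were 1.91 for Il1rl1, 1.85 for Mmp13, 0.96 for Vegfa and 0.36 for Slc20a1. Negative differences in mineral handling and osteoclast control were -0.43 for Nt5e, -0.32 for Mmp14 and -0.27 for Xpr1. Among osteoblast transcription factors, the positive difference was 1.47 for Lef1. Negative differences in osteoblast transcription factors were -1.28 for Dlx5, -1.25 for Msx1, -1.21 for Id1, -1.11 for Id4, -0.85 for Id2 and -0.32 for Sox9. Among collagens and their processing, the positive differences were 1.4 for Col28a1, 1.24 for P3h2, 1.12 for Adamts14, 0.80 for P4ha2 and 0.40 for Bmp1. Negative differences in collagens and their processing were -2.87 for Col2a1, -1.55 for Pcolce2 and -1.11 for Col6a3.

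Among other matrix and protease genes, the positive differences were 1.6 for Mmp9, 1.6 for Timp1, 1.57 for Dcn, 1.12 for Ltbp2, 1.01 for Thbs2, 0.54 for Ccn5 and 0.39 for Fn1. Negative differences in other matrix and protease genes were -3.32 for Cytl1, -2.34 for Aspn, -2.06 for Vtn, -1.68 for Ccn3, -1.28 for Ltbp4, -0.88 for Tnc, -0.86 for Timp3 and -0.65 for Fbln2. Among the cell cycle, the positive differences were 2.49 for Tk1, 2.16 for Mcm10, 1.96 for Top2a, 1.9 for Mki67, 1.59 for Racgap1 and 1.08 for Cdk1. Among lipid and sugar metabolism, the positive differences were 0.93 for Pfkfb3, 0.69 for Sqle, 0.46 for Srebf2, 0.38 for Hmgcs1 and 0.30 for Acsl3. A negative difference in lipid and sugar metabolism was -0.43 for Ndrg1. Among the ER, lysosomes and oxidative stress, the positive differences were 1.02 for Fth1, 0.50 for Ctsb and 0.50 for Sec24d. Negative differences in the ER, lysosomes and oxidative stress were -0.82 for Tfeb and -0.77 for Ctsk. Among immediate early genes, the positive differences were 1.85 for Dusp1, 1.61 for Ier3, 1.4 for Jun and 0.31 for Zfp36.

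Among TGF-beta, BMP, IGF, Wnt and Notch genes, the positive differences were 1.83 for Grem1, 1.48 for Tgfbr3 and 0.54 for Skil. Negative differences in TGF-beta, BMP, IGF, Wnt and Notch genes were -2.57 for H19, -1.64 for Hes1, -1.0 for Igfbp5, -0.83 for Bmp4, -0.70 for Smad6, -0.65 for Sfrp2, -0.61 for Pappa, -0.46 for Lrp6, -0.39 for Igf1 and -0.36 for Jag1. Among cell death and prostaglandin genes, the positive differences were 2.63 for Fas, 1.98 for Casp1, 1.14 for Casp4, 0.69 for Bcl2 and 0.53 for Cflar. Negative differences in cell death and prostaglandin genes were -0.51 for Bbc3, -0.39 for Ptgfr and -0.26 for Bax. Among markers of other cell types, the positive differences were 5.76 for Fcer1g and 3.75 for Trf. Negative differences in markers of other cell types were -2.43 for Krt14 and -1.76 for Tnnt3. Among genes of no list above, the positive differences were 1.65 for Cyp2f2 and 0.56 for Nadk. Negative differences in genes of no list above were -1.78 for Lrrc17, -1.11 for Sox11, -1.05 for Cobll1, -0.94 for F13a1, -0.56 for Ces2g, -0.48 for Oxr1 and -0.34 for Plac8.

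No explanation of these differences was tested. With 3 libraries in each group the gap of a single library to the others was not tested as an outlier.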

How the results depend on the processing

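Genes called for the effect of the medium numbered 7258 to 8411 under the alternatives with all libraries and 7498 to 7941 with 1 library left out. The number changed over 2-fold was 972 on the TPM scale, where adding 1 to each value shrinks the change of low genes, and 1723 to 1789 with 1 library left out. The difference from controls was called for 3344 to 4879 genes, and for 4051 to 4693 with 1 library left out. Called transcripts numbered 5501 to 6276 with 1 library left out, 8057 by library totals and 10531 on the TPM scale. Changed usage was called in 871 genes by the F test, 155 without both liver-rich libraries, and 184 to 254 with 1 library left out, with 184 without undifferentiated library 1, 196 without undifferentiated library 3, 203 without differentiated library 2 and 208 without differentiated library 3. It was called in 928 genes on transcripts of low dispersion and 1106 by limma, both chosen after seeing the data, and the cause was not tested. Same-numbered libraries did not deviate together (correlations -0.1, 0.05 and -0.11). With so few libraries this cannot decide whether the numbers pair cultures. The replicate block gave 8299 genes, 1778 over 2-fold, 4669 for the difference, 6487 transcripts and 243 genes with changed usage. Of 3011 pairs of a described gene and an alternative, 2988 kept direction and call, 10 lost the call, 5 gained it and 8 turned sign. The sign turned for Gjb1 without differentiated library 3 (-1.80 to 5.28 with 1 library left out). For Sparc it turned by library totals (-0.014) and on the TPM scale (-0.11), and for Sp7 by library totals (-0.071), on the TPM scale (-0.018), with the replicate block (-0.088) and without undifferentiated library 3 or differentiated library 2 (-0.20 and -1.38, range up to 0.58). None of the reversed values passed the test. Mki67 was not called by library totals or on the TPM scale and Bcl2 not on the TPM scale (adjusted p = 0.12, 0.763 and 0.21). Depth limits what can be said of genes with few reads, such as Ibsp, Sp7 and Gjb1.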
